A study of Mus musculus with 4 samples.

Results

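The alternative activation genes examined here were the 8 mouse genes Retnla, Chil3, Mgl2, Clec10a, Ear2, Ccl17, Il4ra and Pdcd1lg2, out of 31053 genes in the count tables. They were taken by name, by a rule that uses no measured value, although the list was drawn up with earlier results of these data known. Each was followed by cell class and by day after wire injury of the carotid artery, down to the question whether they occupied the same myeloid cells. The study sequenced single cells of carotid arteries from male C57BL/6 mice that were 11 weeks old before injury, with 1 library before injury (day 0) and 1 library each at days 3, 7 and 14 after wire injury of the left carotid artery. Arteries of several mice were pooled into each library, vessels with a thrombus were left out, and the tissue was digested with enzymes and depleted of dead cells before loading on a droplet system that counts the 3′ ends of transcripts. All mice were fed chow, and no genetic change is stated for any group. With 1 library per day there were no replicates, so no test between days was possible, and every interval given below is a 95% interval for counting error only.

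Alternative activation is the state that macrophages enter when interleukin 4 or interleukin 13 reaches a receptor built around the interleukin 4 receptor alpha chain. The receptor's kinases phosphorylate the transcription factor STAT6, which enters the nucleus and turns on a set of genes used in mice as markers of this state, among them the secreted proteins and lectins listed here. The programme is known from helminth infection, allergy, wound repair and fibrosis, and several of its genes are also used by monocytes or dendritic cells outside that setting.

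The promoter windows of 3 members are printed because they hold the spaced palindrome TTCNNNNGAA, the form of the STAT site for which STAT6 is known. A window ran from 250 bases before to 50 bases after the start of the gene (RefSeq, GRCm38.p6), and the matching bases are in capitals. The Retnla window is chr16:48842359-48842658 on the plus strand with the match 145 to 136 bases before the start, the Ccl17 window is chr8:94810203-94810502 on the plus strand with the match 154 to 145 bases before it, and the Pdcd1lg2 window is chr19:29410669-29410968 on the plus strand with the match 82 to 73 bases before it.
Retnla: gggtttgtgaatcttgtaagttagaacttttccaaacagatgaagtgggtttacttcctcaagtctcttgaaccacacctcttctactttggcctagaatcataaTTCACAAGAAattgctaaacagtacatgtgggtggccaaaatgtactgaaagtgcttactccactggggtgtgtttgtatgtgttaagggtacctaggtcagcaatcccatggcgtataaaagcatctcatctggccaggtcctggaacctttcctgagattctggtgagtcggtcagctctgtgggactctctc
Ccl17: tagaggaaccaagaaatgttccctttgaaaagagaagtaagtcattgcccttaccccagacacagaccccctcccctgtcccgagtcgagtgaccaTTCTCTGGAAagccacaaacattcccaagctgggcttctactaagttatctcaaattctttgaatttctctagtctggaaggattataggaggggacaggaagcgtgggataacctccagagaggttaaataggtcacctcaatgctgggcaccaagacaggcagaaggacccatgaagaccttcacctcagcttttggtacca
Pdcd1lg2: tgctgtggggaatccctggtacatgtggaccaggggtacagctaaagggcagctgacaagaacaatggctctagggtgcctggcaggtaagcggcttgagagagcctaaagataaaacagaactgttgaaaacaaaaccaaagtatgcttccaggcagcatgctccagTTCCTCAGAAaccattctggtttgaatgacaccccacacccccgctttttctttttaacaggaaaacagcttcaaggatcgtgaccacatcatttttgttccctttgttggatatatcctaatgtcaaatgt
The palindrome, which reads the same on both strands, was present in 3 of the 7 members with a window and in 2284 of 32851 windows of the same length (6.95%). The shorter spacing TTCNNNGAA was present in Chil3 (172 to 164 bases before the start) and in Ccl17 (99 to 91 bases before it), against 8.3% of all windows. Clec10a had no entry. These matches describe letters in a window and are not measurements of binding.

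The 4 libraries held 333, 1689, 3001 and 1138 barcodes at days 0, 3, 7 and 14, with 2672722 to 27973418 unique molecular identifiers (UMIs, counted transcript molecules) in total, and 5621 of 6161 barcodes were kept with a median of 4818 to 9481 UMIs. Libraries shared barcodes. Days 0 and 3 had 152 barcodes in common, and in each of these the depth differed by at least 10 times between the copies. Days 7 and 14 had 64 in common, of which 62 were deeper by at least 10 times at day 7. The shallower copies that were kept held 1 Mgl2 and 5 Il4ra UMIs at day 14, 3 Il4ra UMIs at day 0 and no UMI of another member, and leaving them out changed no count of members or pairs given here.

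Levels are given as CPM, the UMIs of a gene in every 1000000 UMIs of a group of cells. Cells were grouped by clustering without the members and were named from marker lists. The monocyte/macrophage-like class held 3, 174, 736 and 156 cells at days 0, 3, 7 and 14, with all 13 of its markers present at days 3, 7 and 14. At day 7 most of it was a cluster led by Plac8 and Klra2 (407 cells), at day 14 a cluster led by Ms4a7 and C1qa (104 cells), and at day 3 these clusters held 76 and 50 cells. The dendritic-like class held 198, 478 and 68 cells at days 3, 7 and 14, mostly in a cluster led by Cd209a at days 3 and 7 (104 and 274 cells), while at day 14 a cluster led by Acp5 and Ciita held 34 and the Cd209a-led cluster 26. A further cluster, led by Ccl6 and Pf4, was kept out of the macrophage class because platelet-list genes led it. It held 0, 308, 58 and 8 cells at days 0, 3, 7 and 14, or 0%, 20.4%, 2.15% and 0.733% of the kept cells. Its macrophage genes were high (Lyz2 at 12363 and C1qa at 1711 CPM), its Pf4 level was 2751 CPM and its Ppbp level 135 CPM, while the platelet genes Itga2b and Gp1bb were at 0.959 and 0.24 CPM and Gp9 had 0 UMIs. It is described as the Ccl6/Pf4 cluster. Another 764 cells (13.6%) stayed unnamed, among them a cycling cluster.

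The library of day 0 held few UMIs of these genes and few myeloid cells. Retnla, Chil3 and Ear2 had 0 UMIs in the 329 cells of day 0, which allows up to 1.13 CPM in that library. Il4ra had 25 UMIs in 25 cells, Pdcd1lg2 2 UMIs, and Clec10a and Ccl17 1 UMI each. Only 3 cells of the day 0 library were monocyte/macrophage-like and none was dendritic-like. All 10 Mgl2 UMIs of that library lay in these 3 cells, each of which held the gene, for a level of 554 CPM (266 to 1019) that was above the Mgl2 level of the class on each later day. With so few cells no myeloid level was set against day 0 further. After injury the members fell into different patterns of day and cell class, shown in the plot of levels by day.

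**Figure D1:**
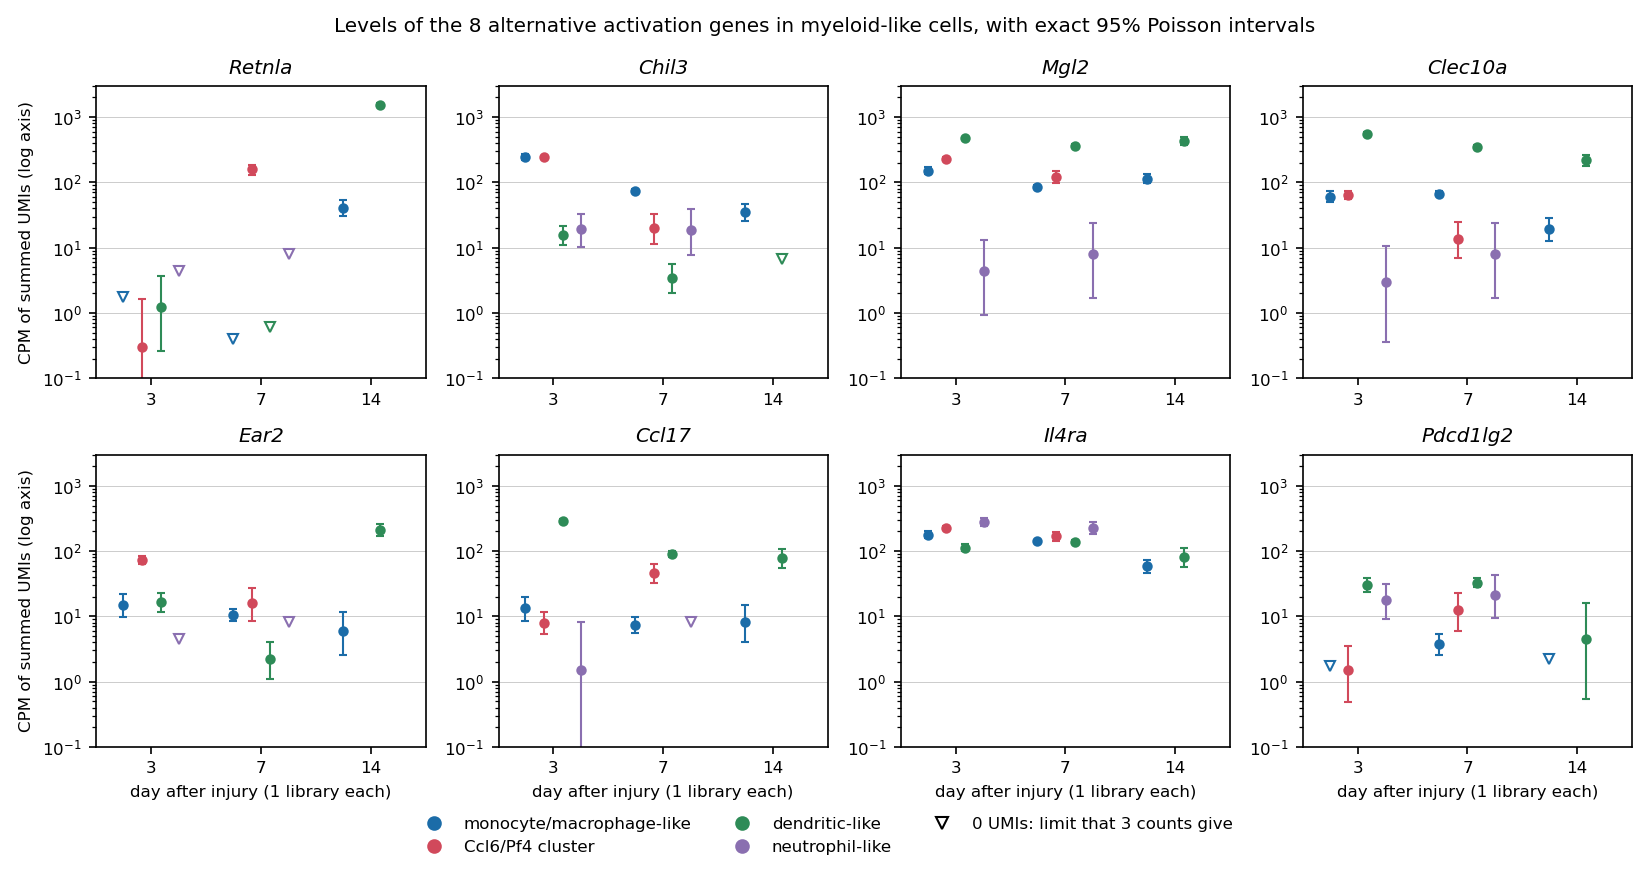
CPM of each of the 8 genes (log axis) at days 3, 7 and 14 in the monocyte/macrophage-like, Ccl6/Pf4, dendritic-like and neutrophil-like groups of at least 20 cells, with 95% Poisson bars, and with open triangles at the limit of 3 UMIs where a group had none. Chil3 was highest on day 3, at 246 CPM in monocyte/macrophage-like cells and 241 CPM in the Ccl6/Pf4 cluster. Retnla reached 1529 CPM in the dendritic-like class on day 14, almost all in cells whose macrophage-list level was above their dendritic-list level.

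Il4ra (ENSMUSG00000030748), the receptor chain shared by interleukin 4 and interleukin 13, was the most widely detected member. Its 4851 UMIs lay in 2051 of 5621 cells (36.5%), and 418 cells held the larger part of them. In monocyte/macrophage-like cells the level was 180 CPM (interval 160 to 201) at day 3, 141 CPM (133 to 150) at day 7 and 59.1 CPM (46.8 to 73.6) at day 14, so that no pair of these intervals overlapped. In dendritic-like cells it was 113, 140 and 80.6 CPM, and in the Ccl6/Pf4 cluster 225 CPM at day 3 and 168 CPM at day 7. The highest levels of all 27 groups of at least 20 cells were in neutrophil-like cells, with 284 CPM (245 to 327) at day 3 and 229 CPM (183 to 283) at day 7. These intervals overlapped, and that of day 7 also overlapped those of the groups next in order, the Ccl6/Pf4 cluster at day 3 and 186 CPM (89.4 to 343) in endothelial-like cells at day 14. Outside the myeloid cells it was detected in T-like cells at 69.3, 54.0 and 60.7 CPM at days 3, 7 and 14. Fibroblast-like cells had 7.19 CPM (4.11 to 11.7) before injury, 40.8 CPM (34.8 to 47.4) at day 3, 33.7 CPM (28.7 to 39.4) at day 7 and 7.51 CPM (5.82 to 9.54) at day 14. The fibroblast levels of days 3 and 7 lay above those of days 0 and 14 with intervals that did not overlap. Il4ra had a UMI in each of the 27 groups, unlike the other members.

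Chil3 (ENSMUSG00000040809) encodes the secreted chitinase-like protein Ym1. It was almost wholly myeloid, with 53.1% of its 1956 UMIs in monocyte/macrophage-like cells and 42.1% in the Ccl6/Pf4 cluster. At day 3 these groups had 246 CPM (223 to 271) and 241 CPM (225 to 258), which did not differ beyond their intervals. At day 7 the level was 74.1 CPM (68.2 to 80.5) in the macrophage class and 19.9 CPM (11.4 to 32.3) in the Ccl6/Pf4 cluster, and at day 14 it was 35.1 CPM (25.8 to 46.7) in the macrophage class from 47 UMIs in 6 cells. Inside the class Chil3 was highest in the Plac8/Klra2 cluster, at 521, 145 and 299 CPM on the 3 days, the last of these in 16 cells. A cluster led by Rsad2 and Ifit1 had 118 CPM at day 3 and 53.3 CPM at day 7. At day 3 Chil3 was in 16 of its 36 cells (44.4%), against 48.7% of the Plac8/Klra2 cluster. The Ms4a7/C1qa cluster had 94.2 CPM at day 3, 7.36 CPM at day 7 and 0 UMIs at day 14, which allows up to 2.81 CPM. Dendritic-like cells had 15.8 CPM, 3.45 CPM and 0 UMIs, the latter allowing up to 6.72 CPM. Of their Chil3 UMIs, 36 of 38 at day 3 and 14 of 17 at day 7 lay in the Acp5/Ciita cluster.

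Mgl2 (ENSMUSG00000040950) and Clec10a (ENSMUSG00000000318) encode the mouse pair of galactose-type C-type lectins, surface receptors that bind and take up glycoproteins. Both were highest in dendritic-like cells. Mgl2 had 473 CPM (445 to 501), 366 CPM (349 to 383) and 430 CPM (371 to 495) there at days 3, 7 and 14, with the day 14 interval overlapping both others. Clec10a had 553 CPM (523 to 583), 352 CPM (336 to 369) and 217 CPM (176 to 265), with no overlap between days. Both were concentrated in the Cd209a-led cluster, where Mgl2 had 581, 411 and 605 CPM and Clec10a 717, 438 and 270 CPM. In monocyte/macrophage-like cells Mgl2 had 151, 85.3 and 114 CPM, but 65.3% of the day 3 UMIs came from 1 cell. Clec10a had 60.6, 66.8 and 19.4 CPM in the same cells. The Ccl6/Pf4 cluster had 231 CPM of Mgl2 at day 3 and 122 CPM at day 7, and 63.5 and 13.7 CPM of Clec10a. The unnamed cells held a further 452 Mgl2 UMIs at day 3 (188 CPM, 171 to 206), and the highest of these cells was in the cycling cluster. In T-like cells at day 14, 22 of 29 Clec10a UMIs lay in 1 cell that also had 6 Cd3e and 17 Lyz2 UMIs.

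Ccl17 (ENSMUSG00000031780) encodes a chemokine that attracts T cells through the receptor CCR4, and Pdcd1lg2 (ENSMUSG00000016498) encodes PD-L2, a ligand of the inhibitory receptor PD-1. Dendritic-like cells held 82.4% of the 1423 Ccl17 UMIs, at 288 CPM (267 to 310), 90.2 CPM (82.0 to 99.0) and 78.4 CPM (54.6 to 109) on days 3, 7 and 14. At day 3 a single dendritic-like cell held 31.3% of them. The level was highest in the cluster led by Ccr7 and Ccl22, at 640 CPM (557 to 733) in 25 cells at day 3 and 133 CPM (104 to 168) in 60 cells at day 7. One of the 25 cells held 124 of the 210 UMIs, and without it the day 3 level was 281 CPM. Pdcd1lg2 was also highest, among myeloid clusters, in that cluster, at 128 CPM (92.3 to 173) and 138 CPM (109 to 174) on the same days. Over the whole dendritic-like class Pdcd1lg2 was at 30.3, 32.9 and 4.48 CPM, the last from 2 UMIs. Unlike Ccl17 it was as high in lymphoid cells, with 40.2 CPM (28.6 to 55.0) in NK-like cells and 30.1 CPM (23.4 to 38.2) in T-like cells at day 7, and 81.7 CPM (42.2 to 143) in 34 NK-like cells at day 14. The intervals of neighbours among the leading Pdcd1lg2 groups overlapped. Monocyte/macrophage-like cells had 0 Pdcd1lg2 UMIs at days 3 and 14, which allows up to 1.73 and 2.24 CPM, and 3.80 CPM at day 7. Ccl17 in the Ccl6/Pf4 cluster had 8.05 CPM at day 3 and 46.0 CPM at day 7, where 97.3% of 37 UMIs came from 1 cell.

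Ear2 (ENSMUSG00000072596) encodes a secreted ribonuclease of the eosinophil-associated family, and Retnla (ENSMUSG00000061100) encodes the secreted protein RELMα, also called Fizz1. Ear2 had 619 UMIs in 111 cells. It was highest in dendritic-like cells at day 14, at 213 CPM (172 to 260), against 16.6 CPM (11.9 to 22.6) at day 3 and 2.24 CPM (1.12 to 4.00) at day 7. Of its 95 UMIs there at day 14, 79 lay in the Acp5/Ciita cluster, where 8 of 10 Ear2 cells also held Retnla. The markers of the Retnla-rich cells, given below, go against the class name. The Ccl6/Pf4 cluster was next in order at day 3 with 73.3 CPM (64.5 to 83.1), although 37.8% of this lay in 1 cell. Monocyte/macrophage-like cells had 15.0, 10.6 and 5.98 CPM. Retnla had 1060 UMIs in only 27 cells, and 87.5% of them came from day 14. Dendritic-like cells had 1.25 CPM from 3 UMIs at day 3, 0 UMIs at day 7 and 1529 CPM (1417 to 1648) from 683 UMIs in 10 cells at day 14, almost all in cells whose markers, given below, go against the class name. Monocyte/macrophage-like cells had 0 UMIs at days 3 and 7, which allows up to 1.73 and 0.393 CPM, and 41.1 CPM (31.0 to 53.5) at day 14 from 4 cells. In the Ccl6/Pf4 cluster 1 UMI was found at day 3 and 127 UMIs at day 7 (158 CPM, 132 to 188), the latter in 2 cells. Retnla had no UMI in 21 of the 27 groups.

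**Figure D2:**
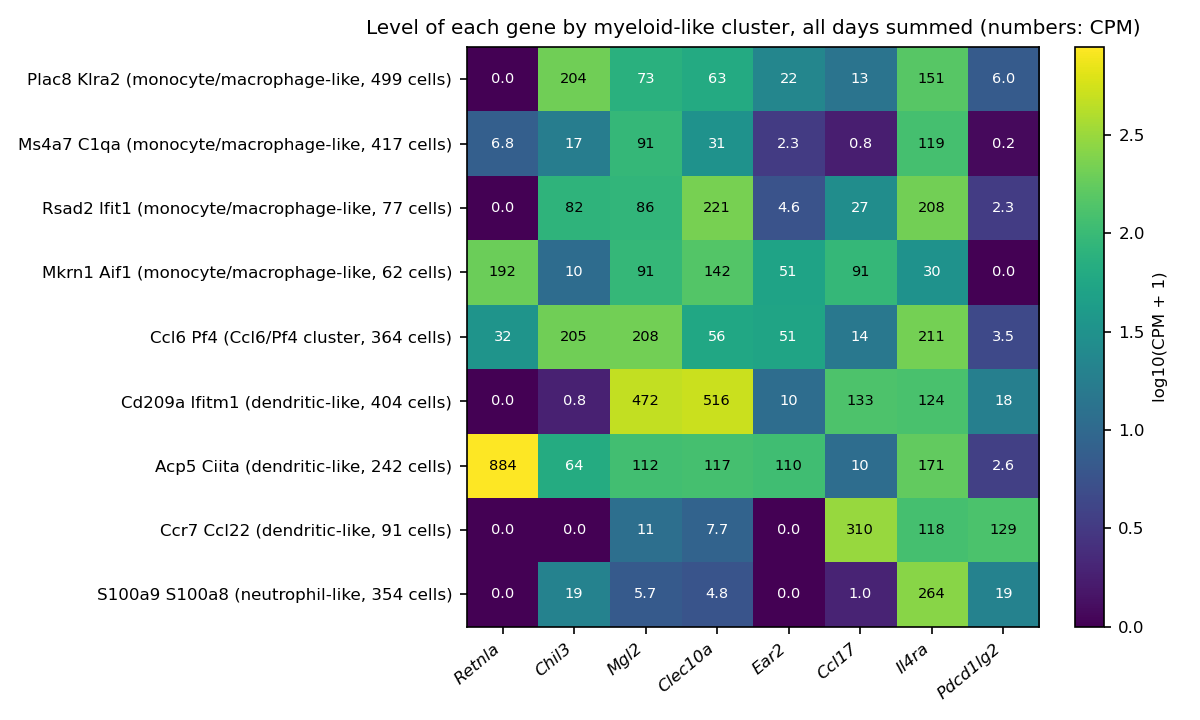
CPM of the 8 genes over all days (colour, log scale) in 9 myeloid-like clusters, each labelled by its leading genes. Chil3 stood at 204 CPM in the Plac8/Klra2 cluster and 205 CPM in the Ccl6/Pf4 cluster, Retnla peaked in the Acp5/Ciita cluster at 884 CPM, while Mgl2 and Clec10a were highest in the Cd209a-led cluster.

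The background of free RNA was read from fibroblast-like cells. After thinning to 1000 UMIs per cell, the share with a UMI was taken in fibroblast-like cells, a class that should lack the myeloid genes. It was 0% for Retnla, Chil3, Mgl2 and Ear2 on each day, and at most 0.833% for Clec10a, Ccl17 and Pdcd1lg2. The upper limits of these 0% shares were 0.739% to 3.03%, and at day 3 77 cells under 1000 UMIs were left out. For Il4ra the fibroblast share was 0.604% to 2.5%. This is no measure of background, since Il4ra had a UMI in each of the 27 groups and its fibroblast level differed between days. Before thinning, the share reached 2.03% and 2.09% for Mgl2 at days 3 and 7, 2.62% for Ccl17 at day 7 and 1.05% for Clec10a at day 7. Retnla had 8 UMIs in 7 of 519 fibroblast-like cells at day 14, or 1.35%, in the library with the Retnla-rich cells. Fibroblast-like cells were not the upper end of this background. After thinning, Chil3 was in 1 of 24 endothelial-like and 1 of 57 NK-like cells at day 3. Clec10a was in 1 of 36 endothelial-like cells at day 7 and 2 of 91 T-like cells at day 14. Retnla and Ear2 were not found in these classes after thinning.

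Day 7 and day 14 were then set against day 3 within each class, calling a gene from a 2-fold ratio of CPM after adding 10 CPM to both sides, among genes with at least 20 UMIs in both sums together. In monocyte/macrophage-like cells at day 7, 0 of 7 members tested were higher and 1 was lower, where 0.7% and 0.643% of all 10423 genes were called. Chil3 was at 0.301 times its day 3 level (0.265 to 0.343), a log2 ratio of −1.61. The other members tested lay within 2-fold, from −0.76 for Mgl2 to 0.46 for Pdcd1lg2. Without the single cell that held most of its UMIs, Mgl2 was at 0.58, so that its direction turned. With the Ccl6/Pf4 cluster added to the class, an alternative chosen after seeing the data, 1 of 8 members was higher and 3 were lower (background 1.32% and 0.802%), namely Retnla higher and Chil3, Mgl2 and Ear2 lower. Without the cell with most of its UMIs, Retnla was at 5.34 rather than 15.0 CPM at day 7. Mgl2 without its top cells was at 172 rather than 204 CPM at day 3, against 83.3 CPM at day 7. Neither ratio was then past 2-fold. In the same enlarged class 1 of 7 was higher and 4 were lower at day 14 (2.59% and 2.96%).

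At day 14 in monocyte/macrophage-like cells, 1 of 7 members tested was higher and 3 were lower, against 2.46% and 3.01% of 8615 genes. Retnla was 23.7-fold higher with 3 UMIs taken as the floor for day 3 (log2 ratio 2.35), and the exact interval began at 18.7-fold. Its UMIs of day 14 lay in 4 cells of which 1 held 65.5%. Chil3 was at 0.143 times its day 3 level (0.103 to 0.193, log2 ratio −2.50), Il4ra at 0.329 times (0.254 to 0.422, −1.46) and Clec10a at 0.321 times (0.200 to 0.496, −1.26). All 47 Chil3 UMIs of day 14 lay in the Plac8/Klra2 cluster, which held 76 cells at day 3 and 16 at day 14. Inside that cluster Chil3 was at 521 and 299 CPM on these days. The part of the changed cluster make-up in the class ratios was not tested. Without the top cell of each gene, 2 members, Chil3 and Il4ra, were past 2-fold, as Clec10a moved to −0.96 and Retnla dropped under 20 UMIs, and Mgl2 turned from −0.38 to 0.96. The median log2 ratio of the members tested was −0.33 at day 7 and −0.65 at day 14, and that of all genes −0.05 and −0.07.

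In dendritic-like cells at day 7, 0 of 7 members tested were higher and 2 were lower, against 0.724% and 0.327% of 10080 genes. Ccl17 was at 0.314 times its day 3 level (0.278 to 0.354, log2 ratio −1.57) and Ear2 at 0.135 times (0.0623 to 0.267, −1.12). The Ear2 call was lost without its top cell (−0.38), which held 65% of the day 3 UMIs. At day 14, 2 of 8 members tested were higher and 4 were lower, against 2.62% and 2.21% of 8488 genes. Retnla was 1228-fold higher (418 to 5968, 683 UMIs against 3, log2 ratio 7.10) and Ear2 12.8-fold higher (8.76 to 19.0, 3.07). All 683 Retnla UMIs and 79 of the 95 Ear2 UMIs lay in the Acp5/Ciita cluster, with the Retnla-rich cells whose markers go against the class name. Ccl17, Pdcd1lg2, Clec10a and Chil3 were lower, with log2 ratios of −1.75, −1.48, −1.31 and −1.37, the last from 38 UMIs against 0. Of these 38 UMIs, 36 lay in the Acp5/Ciita cluster. Chil3 turned to 2.05 with clusters made separately for the 4 libraries, and was lower by just under 2-fold without its top cell. The summed level of the 13 macrophage markers in the dendritic-like class was 2355, 3111 and 3728 CPM at days 3, 7 and 14 and that of the 12 dendritic markers 2750, 2542 and 2262 CPM, with every gene of both lists present on each day, and their part in these ratios was not tested. Mgl2 was at 0.910 times its day 3 level (0.777 to 1.06). The class that held the higher Retnla and Ear2 changed with the processing. With a coarser clustering (resolution 0.6) Retnla had a log2 ratio of 5.60 in monocyte/macrophage-like cells and under 20 UMIs in dendritic-like cells, where the Ear2 ratio turned to −1.07. With a mitochondrial filter of 10% the Retnla ratio was 4.27 in monocyte/macrophage-like cells and again could not be taken in dendritic-like cells, where Ear2 was at 1.85. The median of the members tested was −0.64 at day 7 and −0.87 at day 14, and that of all genes 0.00 and −0.01.

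In the Ccl6/Pf4 cluster only days 3 and 7 had 20 cells or more. Of 7 members tested, 2 were higher and 3 were lower at day 7, against 1.33% and 1.89% of 9191 genes. Retnla had 127 UMIs against 1, a ratio of 529 with an interval of 93.3 to 21061, from 2 cells at day 7. Ccl17 was 5.71-fold higher (3.38 to 9.75), but 36 of its 37 UMIs at day 7 lay in 1 cell, and without that cell the level was 1.30 CPM, below the 8.05 CPM of day 3, so that the direction turned. Chil3 was at 0.0825 times its day 3 level (0.0469 to 0.135), Clec10a at 0.215 times (0.106 to 0.393) and Ear2 at 0.220 times (0.116 to 0.384). The number of cells in the cluster went from 308 to 58.

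**Figure D3:**
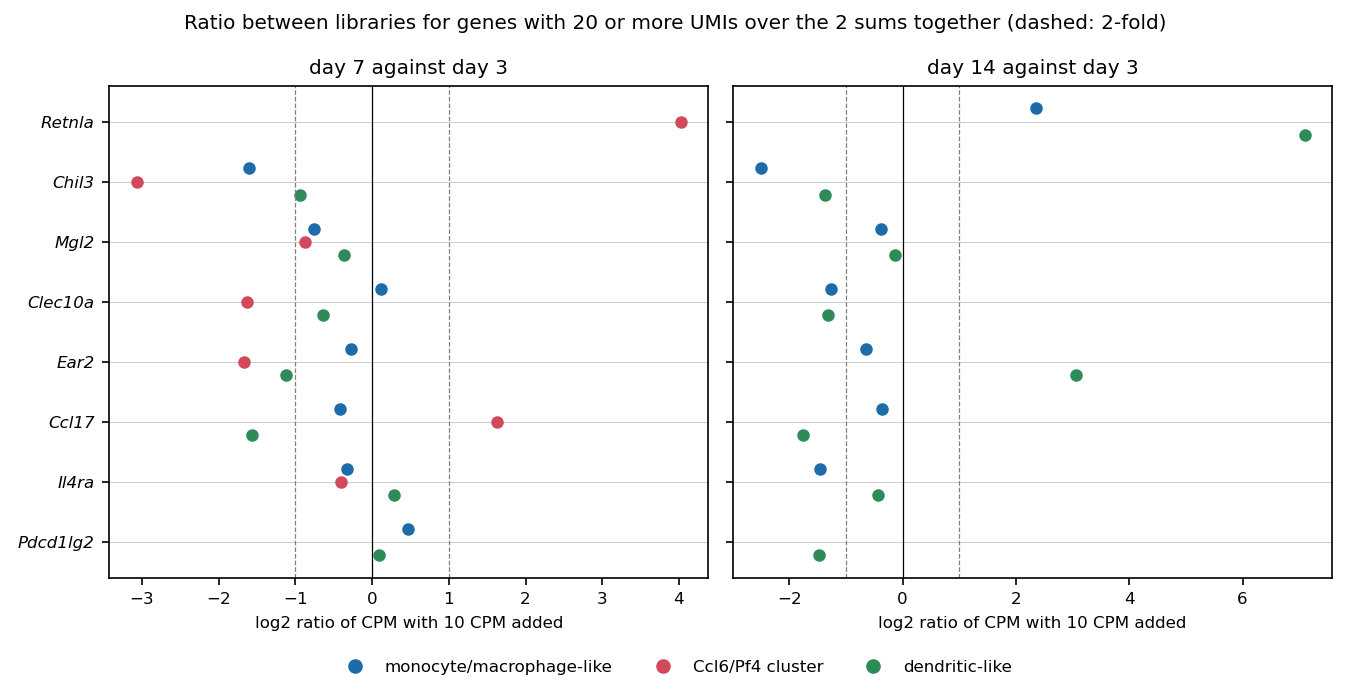
Log2 ratio of CPM with 10 CPM added, day 7 and day 14 against day 3, for each member in monocyte/macrophage-like cells, the Ccl6/Pf4 cluster and dendritic-like cells, with lines at 2-fold. Retnla stands at 7.10 and Ear2 at 3.07 in dendritic-like cells at day 14, and Chil3 lies below 0 in each comparison drawn.

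Whether the members shared cells was asked first over all cells of the 3 myeloid groups together, counting a cell as holding a gene from 1 UMI. At day 3, 368 of 680 cells (54.1%) held UMIs of at least 2 members, at day 7 528 of 1272 (41.5%) and at day 14 62 of 232 (26.7%). Without Il4ra these were 171 (25.1%), 250 (19.7%) and 37 (15.9%). Depth differed between days, the median in dendritic-like cells being 13544.5, 10175.5 and 3618 UMIs on the 3 days. In monocyte/macrophage-like cells it was 8898.5, 9814 and 8426.5 UMIs, and in the Ccl6/Pf4 cluster 8796.5 at day 3 and 11040 at day 7. From day 3 to day 7 the median thus fell in dendritic-like cells and rose in the other groups. The part of depth and of cell numbers in the pooled shares was not tested. At equal depth, given after the pairs below, the shares of day 14 in the dendritic-like and monocyte/macrophage-like classes were not the lower ones. No cell held more than 6 of the 8 genes. The overlap depended on the pair. At day 3 Mgl2 was in 137 cells and 93 of these (67.9%) held Clec10a, making 41.9% of the 222 Clec10a cells. Chil3 was in 207 cells, of which 46 (22.2%) held Clec10a, 15 (7.25%) held Mgl2 and 2 held Ccl17. At day 7, 12 of 138 Chil3 cells held Mgl2 and 0 held Ccl17, while 161 of 276 Mgl2 cells held Clec10a. At day 14 Retnla was in 14 cells, of which 9 held Ear2 and 0 held Chil3, Ccl17, Il4ra or Pdcd1lg2.

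**Figure D4:**
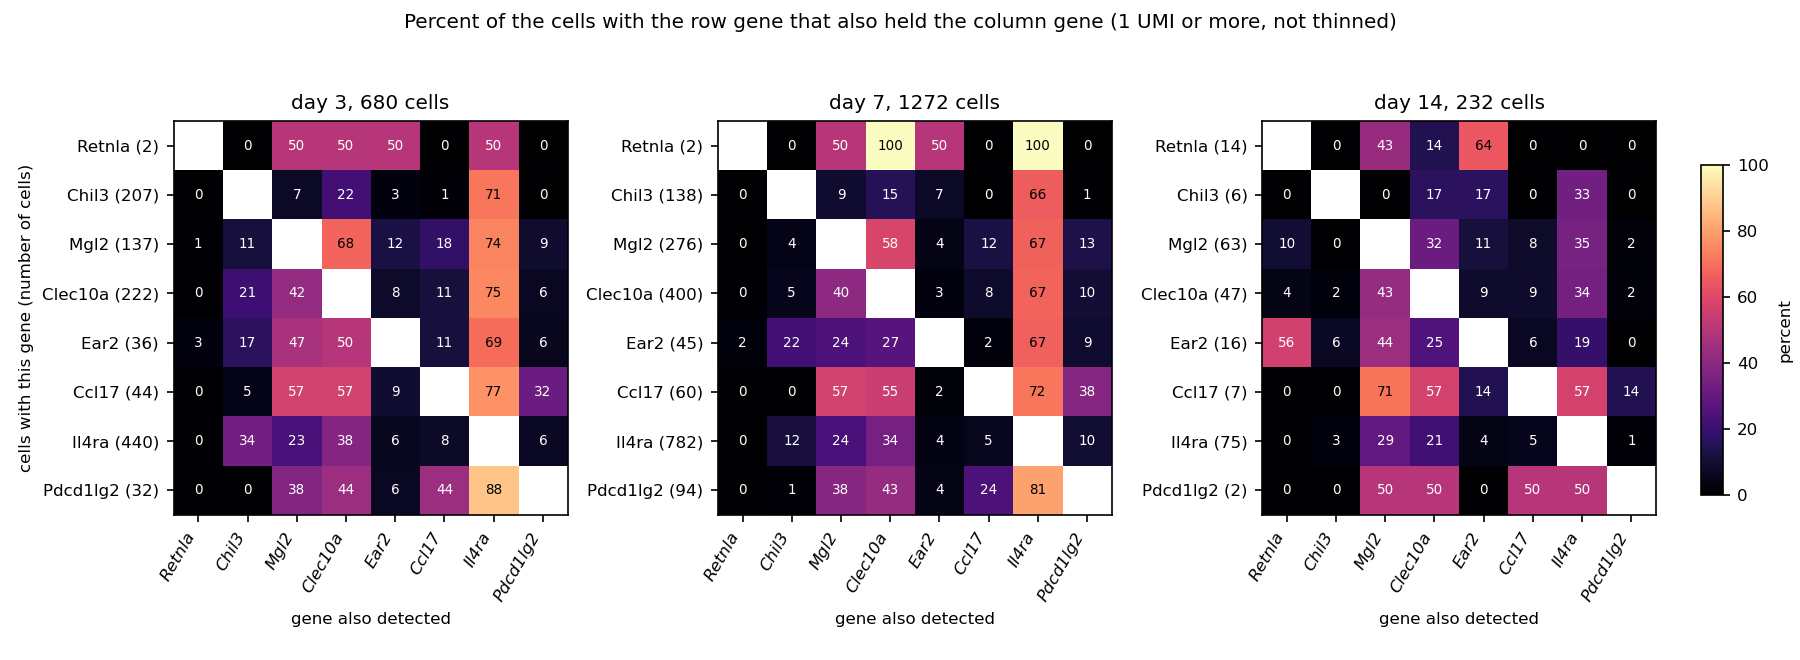
Percent of the cells with the row gene that also held the column gene, without thinning, in monocyte/macrophage-like, Ccl6/Pf4 and dendritic-like cells together at day 3 (680 cells), day 7 (1272 cells) and day 14 (232 cells). Mgl2 and Clec10a form a bright pair at days 3 and 7 (67.9% and 58.3% of Mgl2 cells), and Retnla meets Ear2 at day 14.

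Within a class, the share of cells with one gene was compared between cells with and without another. In dendritic-like cells Clec10a was in 78.6% of Mgl2 cells and 32.0% of the others at day 3, and in 75.9% and 36.4% at day 7. At day 14 it was in 47.6% and 36.2%, with overlapping intervals. The same pair gave 61.7% against 22.6% in the Ccl6/Pf4 cluster at day 3 and 41.9% against 18% in monocyte/macrophage-like cells at day 7. Inside the Cd209a-led cluster the contrast was smaller. There 48 of 56 Mgl2 cells (85.7%) and 68.8% of the others held Clec10a at day 3, with overlapping intervals, and 99 of 118 (83.9%) against 64.7% at day 7. Pdcd1lg2 was in 34.3% of Ccl17 cells and 9.82% of the others in dendritic-like cells at day 3, and in 42.9% and 11.4% at day 7. Inside the Ccr7/Ccl22 cluster it was in 9 of 14 Ccl17 cells (64.3%) and 54.5% of the others at day 3, and in 10 of 16 (62.5%) and 36.4% at day 7, with overlapping intervals on both days. Ear2 was in 21.3% of Mgl2 cells of the Ccl6/Pf4 cluster at day 3 and in 0.766% of the others. In dendritic-like cells these shares were 7.14% and 6.25% at day 3 and 33.3% and 14.9% at day 14. In monocyte/macrophage-like cells they were 10% and 5.84% at day 3 and 5.43% and 4.45% at day 7. The intervals overlapped in each of these classes and days. In the opposite direction, Mgl2 was in 8.20% of Chil3 cells and 19.4% of the others in monocyte/macrophage-like cells at day 7. Inside that class it was 5.77% against 14.5% in the Plac8/Klra2 cluster, with overlapping intervals, and 25% of 12 Chil3 cells against 25.3% in the Ms4a7/C1qa cluster, whose intervals also overlapped. Ear2 was in 0 of 131 Chil3 cells of the Ccl6/Pf4 cluster at day 3 and in 6.78% of the others. That pair did not stand apart elsewhere, since Ear2 was in 2 of 11 Chil3 cells (18.2%) and 5.88% of the others in dendritic-like cells at day 3, and in 7.38% and 4.07% in monocyte/macrophage-like cells at day 7, with overlapping intervals in both. Apart from the overlaps named, the intervals of these pairs of shares did not overlap.

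Depth differs between cells and raises shared detection, so the shares were also taken after thinning each cell to 1000 UMIs, calling a pair together from a ratio of 2 and apart up to 0.5 where each gene was in at least 10 cells. Of 28 possible pairs, 0 to 10 could be judged in a class and day, and none of the thinned pairs had intervals that did not overlap. In monocyte/macrophage-like cells 0 of 3 pairs at day 3 and 0 of 6 at day 7 were together, while 1 and 2 were apart, and no pair could be judged at day 14. Chil3 and Mgl2 were apart at day 7, with Mgl2 in 0 of 53 Chil3 cells. In the Ccl6/Pf4 cluster at day 3, Mgl2 and Clec10a were together and Chil3 was apart from both, with 0 of 55 Chil3 cells holding either lectin. In dendritic-like cells 2 of 10 pairs were together and 1 apart at day 3, 1 of 10 together and 2 apart at day 7, and 0 of 3 together and 1 apart at day 14. Mgl2 and Clec10a were neither together nor apart in dendritic-like cells after thinning, with Clec10a in 33.3% of Mgl2 cells and 23.6% of the others at day 3, 26.2% and 18.5% at day 7, and 16.7% and 26.1% at day 14. The same held in monocyte/macrophage-like cells at day 7. These calls rest on few cells. In dendritic-like cells Ccl17 and Pdcd1lg2 shared 3 of 11 Ccl17 cells at day 3 and 1 of 15 at day 7, both called together. Ccl17 and Il4ra shared 2 of 11 at day 3 (together) and 0 of 15 at day 7 (apart), and 0 of 10 Retnla cells held Clec10a at day 14 (apart). At this depth, at least 2 members other than Il4ra were in 17 of 195 dendritic-like cells at day 3 (8.72%, 5.16 to 13.6), 25 of 465 at day 7 (5.38%, 3.51 to 7.83) and 11 of 58 at day 14 (19.0%, 9.87 to 31.4). The share of day 14 was the highest, with an interval that overlapped that of day 3 and not that of day 7, and 7 of its 11 cells held Retnla. Before thinning these shares were 41.9%, 29.7% and 33.8%. For monocyte/macrophage-like cells they were 0.606%, 0.693% and 1.54% on the 3 days, from 1, 5 and 2 cells, with overlapping intervals, against 14.4%, 13.6% and 8.33% before thinning. In the Ccl6/Pf4 cluster the share was 1.97% at day 3 and 0 of 56 cells at day 7. A gene without a UMI in a thinned cell was not detectable at this depth, which does not mean absent.

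The Retnla cells were few. Over all days 12 cells had at least 10 Retnla UMIs and held 1041 of 1060 UMIs (98.2%), while the other 15 cells had at most 3 UMIs each. Of the 12, 10 were from day 14 and 2 from day 7. At day 14, 7 of 34 cells of the Acp5/Ciita cluster (20.6%, 8.70 to 37.9) were among them and held 679 of its 683 Retnla UMIs, for a level of 7457 CPM against 14.5 CPM at day 3 and 0 UMIs at day 7. The other 3 cells of day 14 were in the Ms4a7/C1qa cluster, in a shallow macrophage-like cluster and in the cycling cluster, the last with 182 UMIs. The Acp5/Ciita cluster was itself shallow, with a median of 1894.5 UMIs at day 14 against 11045.5 in the Cd209a-led cluster. Gm26917, Lars2, Gm42418 and AY036118 were among its 10 leading genes. Mitochondrial UMIs made up 0.191% to 14.2% in the 12 cells. The part of RNA quality in these levels was not tested. Ear2 was in 10 of the 12 cells with 104 UMIs, Mgl2 in 7, Clec10a in 3 and Il4ra in 3, and Chil3, Ccl17 and Pdcd1lg2 were at 0 UMIs in all of them.

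Of the 12 cells, 7 were in a cluster of the dendritic-like class, but the markers of the 12 go against that name, since the macrophage list was far above the dendritic list. Of the macrophage list 11 of 13 genes were present (14330 CPM in sum, 7923 to 31519 in single cells), with Ms4a7 and Ly6c2 at 0. Lyz2 alone made up 1061 of these 1379 UMIs, and Csf1r was in 11 of the cells and Adgre1 and C1qa in 4 each. Of genes on neither list, H2-Ab1, Cd74 and Ccr2 were in all 12 cells and Fn1 in 11. Of the dendritic list 6 of 12 were present (416 CPM in sum, 0 to 1163), with Zbtb46, Xcr1, Clec9a, Ccr7, Fscn1 and Cacnb3 at 0 and Flt3 at 1 UMI. Neutrophil, T, NK, mast cell and eosinophil markers were at 0 UMIs, and Siglecf, the defining eosinophil marker, was among them. The platelet list had 23 UMIs (239 CPM), the plasmacytoid dendritic list 14 (145 CPM), the B cell list 11 (114 CPM) and the smooth muscle list 8 (83.1 CPM). The Schwann, erythroid and endothelial lists had at most 4 UMIs each. Genes of the fibroblast list summed to 904 CPM with Pdgfra at 0, and their part in the result was not tested. The cells' doublet scores had a median of 0.0320, against 0.0423 over all kept cells. Against the other myeloid-like cells of day 14, the genes with the highest folds after Retnla, ranked with 20 CPM added to both sides, were Lyz1, a lysozyme (2405 against 4.58 CPM), Ear2 (1403 against 17.2 CPM) and Fn1, fibronectin (3665 against 115 CPM), a description of cells chosen by Retnla.

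**Figure D5:**
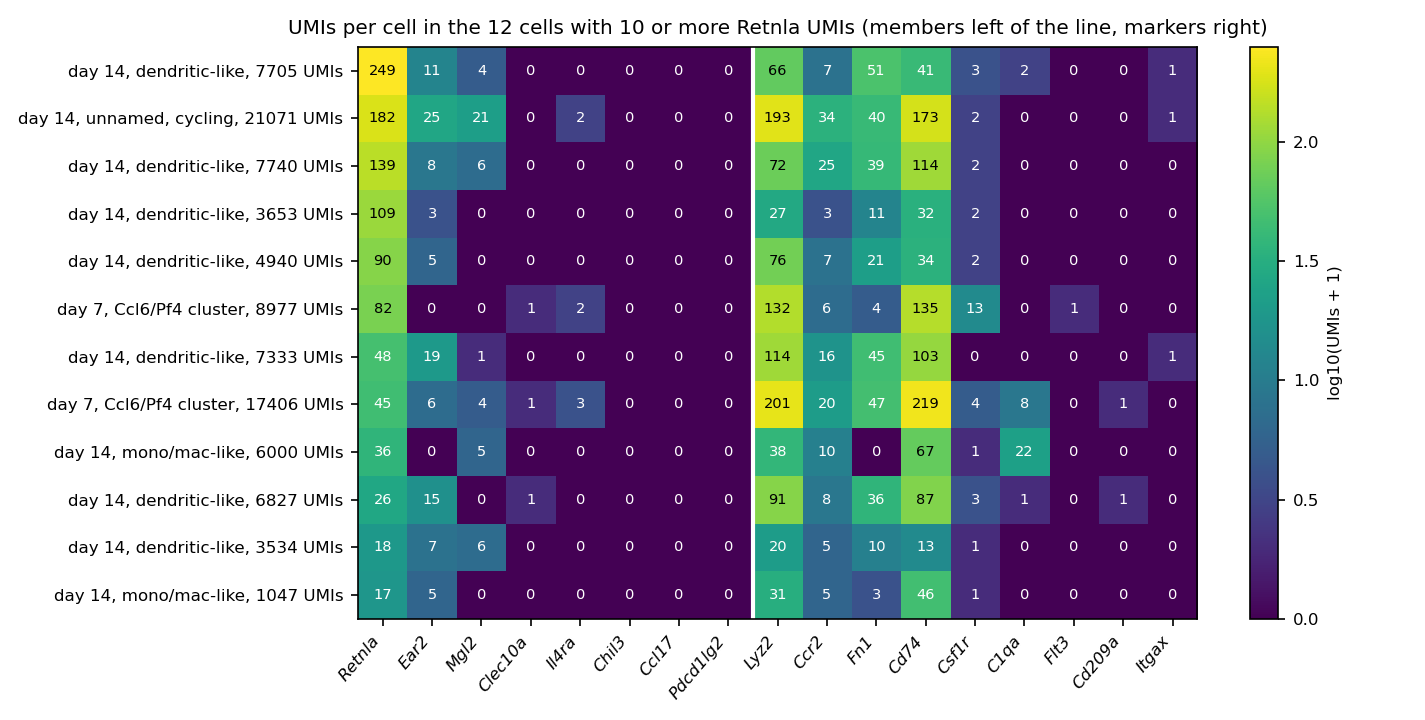
UMIs of the 8 genes and of marker genes (colour) in each of the 12 cells with at least 10 Retnla UMIs, 10 from day 14 and 2 from day 7. Retnla runs from 17 to 249 UMIs, Ear2 is present in 10 cells, and the Chil3, Ccl17 and Pdcd1lg2 columns are empty.

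The genes around the programme were read from lists. The cytokines that start it were barely detected. Il4 had 7 UMIs in 7 of 5621 cells, 6 of them T-like, and Il13 had 5 UMIs in 1 T-like cell. Il33, an alarmin that drives type 2 responses, had 3676 UMIs, of which 3374 were in fibroblast-like cells (169 CPM), and Tslp had 127 UMIs. The receiving side was present: Stat6 was at 63.5 CPM in monocyte/macrophage-like, 63.8 CPM in dendritic-like, 89.7 CPM in Ccl6/Pf4 and 120 CPM in neutrophil-like cells over all days, and Il13ra1, the partner chain for interleukin 13, at 51.2, 67.5, 44.6 and 172 CPM in the same order. Il2rg, the partner chain for interleukin 4, was at 85.3 CPM in monocyte/macrophage-like and 136 CPM in dendritic-like cells. The decoy receptor Il13ra2 had 0 UMIs in the myeloid groups and 30 UMIs in fibroblast-like cells. Of 10 receptor and signalling genes 9 were tested, and 0 passed 2-fold in monocyte/macrophage-like cells at day 7 or day 14 or in dendritic-like cells at day 7. Since 0.327% to 3.01% of all genes were called in either direction in these comparisons, a count of 0 among 9 says nothing particular about the list. At day 14 Irs2, an adaptor of the receptor, was higher in dendritic-like cells (log2 ratio 1.24).

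Other target or associated genes moved both ways. In monocyte/macrophage-like cells the growth factor gene Igf1 was higher on both days, with 12.7, 55.8 and 181 CPM at days 3, 7 and 14 (log2 ratios 1.54 and 3.07), as was Klf4, of the list of transcription factors, with 158, 349 and 343 CPM (1.09 and 1.07). The mannose receptor gene Mrc1 was lower at day 7 (−1.02) and the transglutaminase gene F13a1 on both days (−1.06 and −1.15), and of the chemokines at day 14 Ccl8 was lower (−1.84) and Ccl24 higher (1.68). Of the 12 target or associated genes, a list without Klf4, 10 were tested at day 7, with 1 higher and 2 lower (all genes 0.7% and 0.643%), and 9 at day 14, with 2 higher and 2 lower (all genes 2.46% and 3.01%). In dendritic-like cells Ccl22, a chemokine that shares CCR4 with Ccl17, was lower on both days (−1.67 and −2.83) and Mrc1 was lower at day 7 (−1.61). F13a1 (2.1) and the elastase gene Mmp12 (1.59) were higher at day 14, and Tgm2 (−1.38) and Cdh1 (−1.05) lower, while the transcription factor Egr2 was higher (1.01). Of the target or associated genes 9 were tested in dendritic-like cells at day 7, with 0 higher and 2 lower (all genes 0.724% and 0.327%). At day 14, 7 were tested, with 2 higher and 3 lower (all genes 2.62% and 2.21%). Of the transcription factors 4 were tested at day 14, with 1 higher and 0 lower. In the Ccl6/Pf4 cluster at day 7 Mmp12 was at 1022 CPM against 42.6 at day 3 (4.29), and Ass1, whose enzyme remakes arginine, at 281 CPM against 15.5 (3.51). Mrc1 (−1.02), Ccl24 (−2.04), Ccl8 (−1.20), F13a1 (−1.35) and the transcription factor Irf4 (−1.40) were lower there. Of the target or associated genes 10 were tested in that comparison, with 1 higher and 5 lower. Of the transcription factors 6 were tested, with 0 higher and 1 lower, and of the arginine genes 6, with 1 higher and 0 lower. Over all genes 1.33% were higher and 1.89% lower. Only list genes with at least 50 UMIs are named. Nos2, the gene of inducible nitric oxide synthase, which marks the opposite state, had 154 UMIs in 40 cells, of which 118 were in fibroblast-like cells, 3 in monocyte/macrophage-like cells and 0 in dendritic-like cells.

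The receptors of Ccl17 and PD-L2 were found in T-like cells. Ccr4, the Ccl17 receptor, had 49 UMIs in T-like cells and 0 in the myeloid groups, and Pdcd1, the receptor of PD-L2, had 296 UMIs in T-like cells (89.7 CPM), a class that also held Pdcd1lg2 itself, in 69 of 543 cells (29.1 CPM). Among relatives with similar sequence, whose reads could be split or dropped in counting, Chil4, Ear6, Ear10 and Ear14 had 0 UMIs, Ear1 1 UMI and Retnlb 2 UMIs, so these near copies took hardly any counts beside Chil3, Ear2 and Retnla. The values of these members remain uncertain where near-identical copies share reads, and the same holds for Mgl2 and Clec10a. Retnlg and Chil1 went with neutrophil-like cells, with 537 of 547 and 83 of 103 UMIs.

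The genes whose levels ran most like each member were found over the 27 groups of class and day with at least 20 cells, among 11319 genes, by Pearson's r of log2 CPM with 10 CPM added. These groups come from the same 4 libraries and share their depth, so r is a description. Chil3 ran most like Siglec1 (r = 0.92), Gm36161 (0.92) and Folr2 (0.91), and Retnla like Lyz1 (0.82), Apol7c (0.75) and Ear2 (0.74). Mgl2 ran most like Tifab (0.97), Fgd2 (0.97) and Rtl5 (0.96), Clec10a like Cd209a (0.97), Gm15987 (0.94) and Bex6 (0.94), and Ccl17 like Bex6 (0.92), Cd209d (0.90) and Rtn1 (0.90). Ear2 ran most like Lyz1 (0.90), Mfsd7a (0.89) and Tbxas1 (0.81), Il4ra like Rhog (0.90), Ptpn1 (0.88) and Nsf (0.88), and Pdcd1lg2 like Acap1 (0.86), Ltb (0.86) and Stk24 (0.86). Between members r was 0.885 for Mgl2 with Clec10a and 0.871 for each of these with Ccl17, 0.780 for Ear2 with Mgl2 and 0.736 for Retnla with Ear2. Mgl2 ran at 0.492 to 0.885 with each member but Pdcd1lg2. Chil3 was at 0.599 with Mgl2, 0.560 with Il4ra, 0.466 with Ear2, 0.402 with Clec10a and 0.0035 with Retnla. Pdcd1lg2 was at most 0.317 with any other member.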

How the data were processed

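The authors deposited 1 table of UMI counts per library, made with Cell Ranger (3.0.2 in the file header, another version in their methods). The submitters' notes name the build GRCh38 for these mouse samples, so no coordinates were taken from the count files. Promoter windows came from RefSeq tables of GRCm38.p6. Barcodes with under 200 genes or over 20% mitochondrial UMIs (453) and the highest doublet scores (106, at 0.8% per 1000 barcodes, since the caller's own threshold marked 20) were removed. The counts were scaled to 10000 per cell, and 2000 variable genes without the members or listed genes gave 30 components, 15 neighbours and 26 Leiden clusters (resolution 1; scanpy 1.11.5, leidenalg 0.10.2, scipy 1.17.1). A cluster was named from at least 3 markers, and cycling cells took the class of 60% or more of their 15 nearest neighbours.

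Counts were summed per class and day as CPM, with exact Poisson, binomial (Clopper-Pearson) and ratio intervals at 95% for counting error only, and a floor of 3 UMIs. The counting and fold steps were tested on simulated data. All columns were mapped to a sample (0 unmapped). The members and lists were chosen with earlier results of these data known. 1 further gene of the list is not reported here. Genes named were the 8 members, list genes past 2-fold with at least 50 UMIs, receptor chains, near copies, the 2 leading genes of clusters and the 3 genes most like each member, with genes that define the Ccl6/Pf4 cluster and the Retnla cells added after their values were seen. Alternatives were the clustering resolution, separate clustering, filters, doublets, pseudocount and thinning, and, added after seeing the data, the Ccl6/Pf4 cluster, shared barcodes and top cells.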

Additional observations from a re-analysis of the deposited data

Results flagged for a closer look

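Il4ra at day 7 against day 3 was lower in monocyte/macrophage-like cells (log2 ratio −0.33) and higher in dendritic-like cells (0.29), a difference of −0.61 between the classes with opposite directions. Ear2 at day 14 against day 3 was lower in monocyte/macrophage-like cells (−0.65) and higher in dendritic-like cells (3.07), a difference of −3.71. Of the 95 Ear2 UMIs of dendritic-like cells at day 14, 79 lay in the Acp5/Ciita cluster, where 8 of 10 Ear2 cells held Retnla. The markers of the Retnla-rich cells go against the class name. With 1 library per day neither difference was tested. The Ear2 value changed with the clustering, since at resolution 0.6 the macrophage-like ratio was 2.08 and the dendritic-like ratio −1.07. The cause of this change was not tested.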

How the results depend on the processing

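The number of members past 2-fold was recomputed under each alternative. In monocyte/macrophage-like cells at day 7 it was 3 rather than 1 under separate clustering of the libraries, 2 with 1 CPM added, where Pdcd1lg2 was at 2.26, and 4 once the Ccl6/Pf4 cluster was included, and at day 14 it went from 4 to 2 without the cell with most UMIs of each member. In dendritic-like cells at day 7 it went from 2 to 1 at resolution 1.5, with the mitochondrial filter at 10% and without the top cells. Apart from the class with the Ccl6/Pf4 cluster, no share of all genes is given for these settings. The counts show dependence on processing and are no result about the members. The number of pairs detected together in monocyte/macrophage-like cells at day 3 went from 0 to 1 when thinned to 500 UMIs, with no thinning, from 2 UMIs, at resolution 0.6 and with the Ccl6/Pf4 cluster. At day 7 it went from 0 to 1 when thinned to 2000 UMIs, to 2 with no thinning and to 1 from 2 UMIs, and at day 14 from 0 to 1 with no thinning and to 1 at resolution 0.6. The other 55 recomputed counts stayed within 1.5 times, and pairs in the other groups were not among them. With no thinning, the pairs together in dendritic-like cells went from 2 to 3 at day 3, from 1 to 3 at day 7 and from 0 to 1 at day 14. In the Ccl6/Pf4 cluster they went from 1 to 3 at day 3. Of the log2 ratios of single members, 200 stayed within their counting interval, 92 left it and 2 that had been past 2-fold changed sign: Ear2 in dendritic-like cells at day 14 was −1.07 at resolution 0.6, and Chil3 in dendritic-like cells at day 14 was 2.05 with each library clustered on its own. A further 23 changed sign from a value within 2-fold, among them Mgl2 in monocyte/macrophage-like cells under 2 settings at day 7 and 5 at day 14 and Ear2 in that class under 3 settings on each day. The cause was not tested, apart from the top cells and the added cluster, which show it by construction. No paired analysis was possible because each day had 1 library and no fit was made. The main limits were the single libraries, small classes at day 14 and members whose UMIs lie in few cells, which no interval here covers.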
